A study of Homo sapiens with 17 samples.

Results

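The chemokine transcripts CCL2, CCL7, CCL20, CXCL10 and CXCL11 were followed in IMR90 ER:RAS cells, a human lung fibroblast line that carries an ER:RAS fusion protein switched on by 4-hydroxytamoxifen (4OHT). The 5 genes were chosen by name, with their levels in these libraries already known, and all 5 were among the 19473 genes that had enough counts to be tested. All cells carried the ER:RAS construct, and RNA was extracted on day 7 in every group. The 17 libraries fell into 3 groups, namely DMSO-treated cells with a non-targeting siRNA (DMSO siNT, n = 5), 4OHT-treated cells with the same control (4OHT siNT, n = 6), and 4OHT-treated cells with an siRNA against SMARCA4 (4OHT siSMARCA4, n = 6). Each library name also held an siRNA number (2 or 4), a replicate number, and the suffix V or VM, which no label explains. The 4OHT siNT group held VM libraries only, DMSO siNT held 2 V and 3 VM libraries, and 4OHT siSMARCA4 held 3 of each. A library is written here as number, replicate and letters, for example 2-3V. Nothing in the labels says that replicates were separate cultures, so intervals and p-values measure the spread between these libraries, which may be technical.

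Chemokines are small secreted proteins that direct the movement of leukocytes through receptors on the target cell. CCL2 and CCL7 attract monocytes through CCR2, CCL20 is the ligand of CCR6 on lymphocytes and dendritic cells, and CXCL10 and CXCL11 act on CXCR3, which T cells and natural killer cells carry. Oncogenic RAS drives fibroblasts into senescence with an inflammatory secretome rich in chemokines, and SMARCA4 (BRG1) is the motor subunit of SWI/SNF complexes, which remodel chromatin. CXCL10 and CXCL11 are known as interferon-induced genes, while CCL2 and CCL20 are known targets of NF-kB.

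CCL2 and CCL7 lie side by side on chromosome 17, 13.0 kb apart, and CXCL10 and CXCL11 on chromosome 4, 10.2 kb apart. CCL20 is on chromosome 2. The 250 bases before the transcript start were matched in RefSeq for 4 of the 5 genes, the exception being CCL2. They are shown for CXCL10, its neighbour CXCL11, and CCL20, because these promoters belong to genes with different patterns in the libraries. Capitals mark matches on either strand to the core of the interferon-stimulated response element (ISRE, GAAANNGAAA), to the NF-kB consensus and to the AP-1 motif TGANTCA.
CXCL10 (GRCh38.p14 chr4:76023498-76023747, - strand): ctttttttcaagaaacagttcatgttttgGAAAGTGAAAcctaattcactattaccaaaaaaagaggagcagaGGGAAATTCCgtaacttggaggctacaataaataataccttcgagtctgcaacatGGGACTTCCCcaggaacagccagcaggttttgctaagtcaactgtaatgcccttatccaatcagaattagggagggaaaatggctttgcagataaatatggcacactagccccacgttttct
CXCL11 (GRCh38.p14 chr4:76036071-76036320, - strand): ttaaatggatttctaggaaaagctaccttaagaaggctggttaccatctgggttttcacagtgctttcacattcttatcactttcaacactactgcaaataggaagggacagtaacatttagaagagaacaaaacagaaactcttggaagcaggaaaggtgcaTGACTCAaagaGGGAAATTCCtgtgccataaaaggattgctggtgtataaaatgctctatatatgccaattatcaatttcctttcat
CCL20 (GRCh38.p14 chr2:227813592-227813841, + strand): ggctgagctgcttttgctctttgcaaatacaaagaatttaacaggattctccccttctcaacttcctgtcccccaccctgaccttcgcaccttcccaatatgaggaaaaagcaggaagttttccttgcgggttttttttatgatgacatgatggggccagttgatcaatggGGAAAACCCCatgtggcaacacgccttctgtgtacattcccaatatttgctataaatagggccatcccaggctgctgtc
In the CXCL10 window the ISRE core spanned bases 221 to 212 before the start, and NF-kB matches spanned bases 177 to 168 and 122 to 113. The CXCL11 window held an NF-kB match at bases 76 to 67 and an AP-1 match at bases 87 to 81. The CCL20 window held an NF-kB match at bases 79 to 70. No marked matches overlapped. Of 35116 RefSeq promoter windows of this length, 3.02% held the ISRE core, 5.21% the NF-kB consensus and 6.57% the AP-1 motif. These letter matches were not tested for binding.

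Libraries held 39109479 to 68978119 counts. The fibroblast markers COL1A1 and VIM were abundant in every group, with means of 2293 to 10772 and 5720 to 5985 counts scaled to a library of 1000000 (CPM). Of 11 leukocyte markers, 10 were under 1 CPM in every library, and the summed level of the list was 20.5 to 27.8 CPM in DMSO siNT, 23.1 to 30.7 in 4OHT siNT and 20.8 to 31.0 in 4OHT siSMARCA4. The 4 endothelial markers summed to 0.856 to 1.96 CPM in DMSO siNT, 3.95 to 5.94 in 4OHT siNT and 2.05 to 4.46 in 4OHT siSMARCA4, and the 5 epithelial markers to 71.0 to 92.8, 65.3 to 81.8 and 35.3 to 58.4 CPM. The summed level of the 11 fibroblast markers was 29056 to 35354 CPM in DMSO siNT, 18076 to 28039 CPM in 4OHT siNT and 9552 to 16797 CPM in 4OHT siSMARCA4, with no overlap between groups, and the part of this in the chemokine results was not tested. SMARCA4 itself was at 68.4 to 127 CPM in 4OHT siSMARCA4 against 253 to 286 CPM in 4OHT siNT, and it fell by 1.61 on the log2 scale (SE 0.13, adjusted p = 5.1e-07, edgeR). In 4OHT siSMARCA4 the V libraries kept more SMARCA4 (82.7 to 127 CPM) than the VM libraries (68.4 to 78.3 CPM), a log2 difference of 0.54 (SE 0.12, adjusted p = 0.020, edgeR).

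CXCL10 was the member with the largest difference between 4OHT siSMARCA4 and 4OHT siNT, and it was higher in every siSMARCA4 library whatever its siRNA number or letters. In DMSO siNT it was at 1.43 CPM in 2-1V, 0.279 in 2-2V, 0.173 in 2-2VM, 0.213 in 4-2VM and 0.117 in 4-3VM. In 4OHT siNT it ranged from 6.28 to 8.35 CPM with a median of 7.49. In 4OHT siSMARCA4 it ranged from 30.8 to 54.4 CPM with a median of 34.5. No library of one group overlapped with another, and DMSO library 2-1V stood above the rest of its group. The mean was 38.8 ± 9.95 CPM (SD, n = 6) with siSMARCA4 against 7.43 ± 0.833 CPM (SD, n = 6) with siNT, a 5.22-fold difference (95% interval 3.31 to 8.21). It was 5.52-fold for the V libraries (3.88 to 7.85) and 4.91-fold for the VM libraries (3.45 to 6.99), each against the VM libraries of 4OHT siNT. With siRNA number 2 alone the log2 difference was 2.36 (SE 0.42) and with number 4 alone 2.48 (SE 0.19). Of the 19473 genes tested, 12 had a larger log2 difference than CXCL10. CXCL10 was the single member of 5 whose siSMARCA4 libraries all lay above those of 4OHT siNT, and 4.54% of all genes tested did so. That contrast was among the results known when the genes were chosen, so no test is given for it.

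4OHT against DMSO in siNT gave a 16.6-fold higher CXCL10 (95% interval 9.07 to 30.2). This value leaned on DMSO library 2-1V, and the log2 difference of 4.05 (SE 0.41) became 5.23 without it. CXCL10, CXCL11 and CCL20 had no overlap between these groups, 3 of 5 members against 19.6% of all genes tested.

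**Figure D1:**
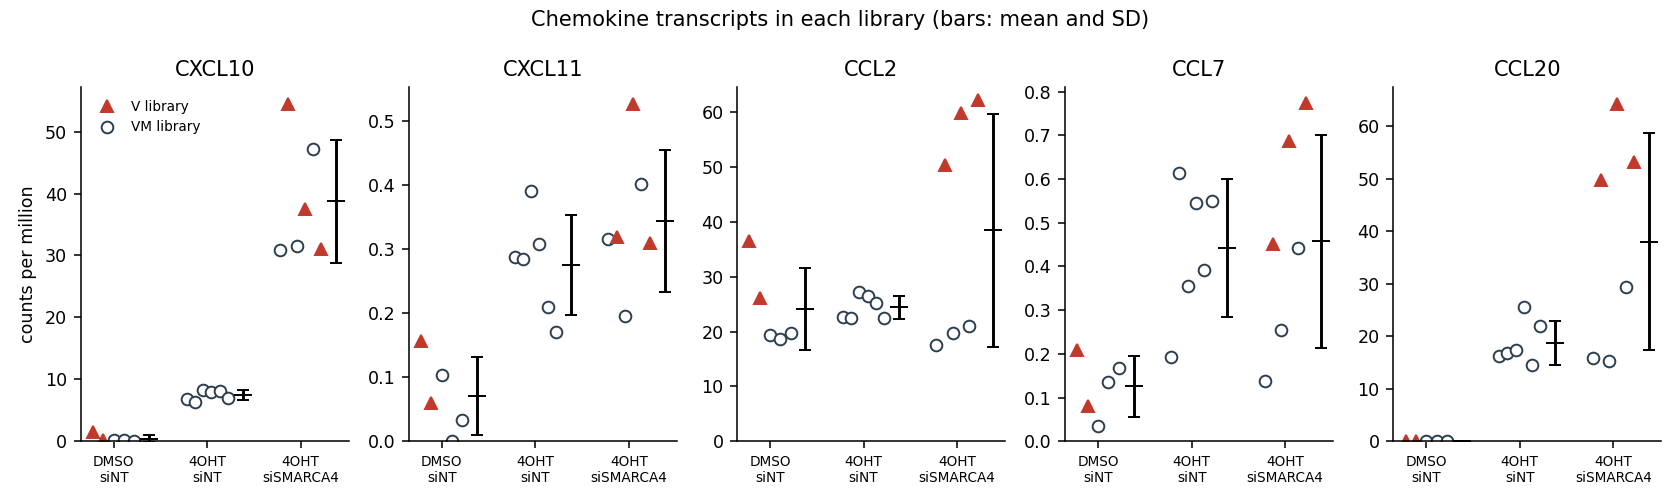
Level (CPM) of the 5 chemokine transcripts in each of the 17 libraries, on a separate linear axis per gene. Triangles are V libraries, open circles VM libraries, and the bars give the mean and SD of each group. CXCL10 lies between 30.8 and 54.4 CPM in every siSMARCA4 library, while CCL2 and CCL20 are high in the 3 V libraries of that group and near the 4OHT siNT level in its VM libraries.

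With siSMARCA4 few interferon-stimulated genes rose beside CXCL10. That pattern in this comparison was part of the choice of the members, so the values of the interferon lists in it describe what was chosen and support nothing further. Of 45 listed, 41 were tested, and with siSMARCA4 4 rose (RIGI, IFIT5, ISG20 and IFI35) and 6 fell (among them BST2, EPSTI1 and TRIM22) at an adjusted p under 0.05 in edgeR. Across all genes tested 24.2% passed, with 10.4% that rose and 13.8% that fell. The count that rose was 2 without 4OHT siNT library 2-1VM or siSMARCA4 library 2-1VM, 2-3VM or 4-2VM, and the count that fell ran from 5 to 8 over the left-out libraries. With VM libraries only 5 of 40 rose and 8 fell (12.5% and 20%, beside 11.6% and 15.3% of all genes in that fit). With V or VM as a covariate 4 of 41 rose and 10 fell (9.76% and 24.4%, beside 11.8% and 15.6%), and with siRNA number 4 alone 1 rose and 1 fell (2.44% each, beside 3.64% and 2.38%). Their median log2 difference was -0.11, beside -0.02 for all genes and the highest was IFI35 at 0.90 (SE 0.29). IRF1, which binds interferon-response elements, differed by 0.06 (SE 0.087), ISG15, a ubiquitin-like protein, by -0.14 (SE 0.14), and IFIT3 by 0.12 (SE 0.14). IFIT1 and IFIT2, of the same family, stayed at or under 1.05 CPM in all 4OHT libraries, and were at 4.53 to 11.6 and 6.77 to 13.3 CPM in DMSO siNT. MX1, an antiviral GTPase, differed by -0.92 (SE 0.41), and in the VM libraries alone by -1.23 (SE 0.41). IFNB1, the fibroblast interferon, did not pass the filter and was at or under 0.039 CPM in every library.

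**Figure D2:**
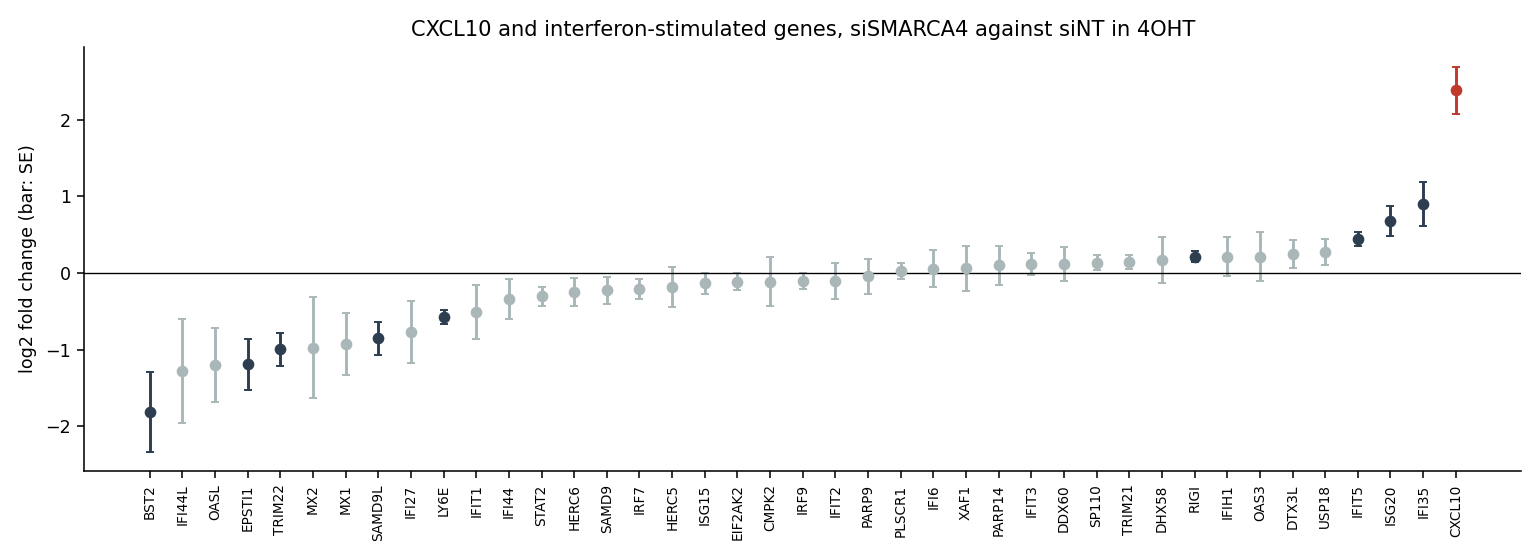
Log2 fold change of siSMARCA4 against siNT in 4OHT for CXCL10 (red) and 40 of the 41 interferon-stimulated genes tested, sorted by value, with SE bars. Dark points are interferon-stimulated genes with an adjusted p under 0.05. They run from -1.81 (BST2) to 0.90 (IFI35), and CXCL10 is at 2.38.

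Of 15 interferon gamma-type genes tested, 0 passed the test in edgeR with siSMARCA4 (median -0.08), 0 had an unadjusted p under 0.05, and 0 passed in DESeq2. Of 9 tested interferons, receptors and kinases, 1 rose (IL10RB) and 1 fell (TYK2), each 11.1%, beside 10.4% and 13.8% of all genes. Among 12 nucleic acid sensing genes 3 rose (CGAS, TBK1 and RIGI) and 3 fell (STING1, IKBKE and MAVS), each 25% beside the same shares. CGAS, which makes the second messenger that STING1 detects, rose by 1.02 (SE 0.13, adjusted p = 4.8e-05) and STING1 fell by 0.84 (SE 0.27, adjusted p = 0.030, edgeR). Under 4OHT against DMSO the interferon-stimulated genes were lower rather than higher, with 22 that fell and 2 that rose (CMPK2 and ISG20) of 41, against 27.4% and 27% of all genes, of which 54.4% passed, and a median of -0.48. With VM libraries only, 19 of 40 fell and 4 rose (47.5% and 10%, beside 27.0% and 23.5% of all genes), median -0.32. Over all libraries IFIT2 fell by 3.85 (SE 0.24) and IFIT1 by 3.31 (SE 0.35). The gamma-type genes fell in 8 of 15 and rose in 4, IRF1 among them.

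CXCL11 sat near the lower limit of detection, with 0 to 36 counts per library. In DMSO siNT it was at 0.157, 0.0597, 0.104, 0 and 0.0336 CPM in 2-1V, 2-2V, 2-2VM, 4-2VM and 4-3VM. It ranged from 0.170 to 0.392 CPM in 4OHT siNT (median 0.287) and from 0.196 to 0.527 in 4OHT siSMARCA4 (median 0.317). Both 4OHT groups overlapped almost entirely, and the log2 difference of siSMARCA4 was 0.32 (95% interval -0.45 to 1.09). CXCL9, the third CXCR3 ligand, was not tested and stayed at or under 0.131 CPM. CXCR3, the receptor, was at or under 0.020 CPM, and CCR2 and CCR6 at or under 0.015 and 0.078 CPM, so the transcripts of these receptors were near or at 0.

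CCL20 was nearly absent from DMSO siNT, with 3 counts over the 5 libraries, 2 of them in 2-1V. In 4OHT siNT it ranged from 14.5 to 25.5 CPM with a median of 17.1, a ratio to DMSO of 1624 in counts per library total (95% exact counting interval 556 to 7879, for counting error only). In edgeR the log2 difference of 10.47 (SE 0.67) became 11.38 without 2-1V. With siSMARCA4 it was at 49.7, 64.2 and 53.3 CPM in the V libraries 2-3V, 4-2V and 4-3V and at 15.9, 15.4 and 29.4 CPM in the VM libraries 2-1VM, 2-3VM and 4-2VM. The V libraries lay above all others, and the VM libraries within or near the range of 4OHT siNT. Over all 6 libraries the difference from 4OHT siNT was 2.03-fold (95% interval 1.33 to 3.11). It was 2.98-fold (2.22 to 3.99) for the V libraries and 1.08-fold (0.796 to 1.47) for the VM libraries. CCL2 and CCL20 were the 2 members whose siSMARCA4 V libraries lay above every other 4OHT library, as 1.25% of all genes tested did.

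CCL2 had the same division. In DMSO siNT it was at 36.5 CPM in 2-1V and 26.1 in 2-2V, above 19.4, 18.7 and 19.8 CPM in the VM libraries. In 4OHT siNT it ranged from 22.4 to 27.1 CPM (median 23.9). With siSMARCA4 it was at 50.3, 59.8 and 62.2 CPM in V libraries 2-3V, 4-2V and 4-3V, and at 17.5, 19.7 and 21.0 CPM in 2-1VM, 2-3VM and 4-2VM. The siSMARCA4 VM libraries were all below the lowest 4OHT siNT library and the V libraries all above the highest. The log2 difference over all libraries was 0.66 (95% interval 0.05 to 1.26), but it was 1.24 (1.02 to 1.46) for the V libraries and -0.33 (-0.56 to -0.10) for the VM libraries. 4OHT against DMSO in siNT gave 0.02 (-0.61 to 0.65) for CCL2 over all libraries, where DMSO siNT held 2 V libraries and 4OHT siNT none. The same comparison gave 0.31 (0.11 to 0.51) with VM libraries only and 0.52 (0.21 to 0.82) with V or VM as a covariate. With V or VM as a covariate the siSMARCA4 difference was -0.13 for CCL2 and 0.11 for CCL20, and 2.08 for CXCL10. The covariate fits assumed 1 V difference for all groups, which CCL2 did not have (0.70 in DMSO siNT and 1.57 in 4OHT siSMARCA4). For CXCL10 the V difference was 2.38 in DMSO siNT, where library 2-1V stood out, and 0.17 in 4OHT siSMARCA4. These 2 values differed by -2.21 (SE 0.63, 95% interval -3.54 to -0.88, adjusted p = 0.10, edgeR). The covariate value of 2.08 for CXCL10 therefore rests on an assumption that may not hold for it. Because 4OHT siNT held no V library, siSMARCA4 and V cannot be told apart for the V libraries.

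CCL7, the neighbour of CCL2, had 2 to 47 counts per library. It was at 0.0347 to 0.209 CPM in DMSO siNT, 0.192 to 0.615 in 4OHT siNT (median 0.469) and 0.138 to 0.773 in 4OHT siSMARCA4 (median 0.447). The 4OHT groups overlapped, with a log2 difference of 0.06 (95% interval -0.74 to 0.87), and the VM libraries alone gave -0.65 (SE 0.47). 4OHT against DMSO gave 1.79 (SE 0.46). Per kilobase of exon, the order in 4OHT siSMARCA4 was CXCL10 (33.0 ± 8.47 CPM per kb, SD, n = 6), CCL20 (23.8 ± 13.0), CCL2 (19.9 ± 10.98), CCL7 (0.530 ± 0.282) and CXCL11 (0.194 ± 0.0623). Exons were merged over all annotated transcripts, which for CCL2 gave 1935 bases, the whole gene with its introns. The order of the first 3 therefore depended on these lengths, and in CPM their means were nearly equal (CXCL10 38.8, CCL2 38.4, CCL20 38.0). It depended on the letters as well. In the VM libraries CXCL10 (31.1 ± 7.9 CPM per kb, SD, n = 3) lay above CCL20 (12.7 ± 5.01) and CCL2 (10.03 ± 0.924), with no overlap. In the V libraries CCL20 (34.97 ± 4.75), CXCL10 (34.9 ± 10.3) and CCL2 (29.7 ± 3.25) overlapped. In 4OHT siNT the order was CCL2 (12.6 ± 1.12 CPM per kb), CCL20 (11.7 ± 2.61) and CXCL10 (6.32 ± 0.709), of which CCL2 and CCL20 did not differ beyond their spread. That closeness depended on the lengths too. In CPM, CCL2 was at 24.4 ± 2.16 and CCL20 at 18.7 ± 4.16 there (SD, n = 6).

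**Figure D3:**
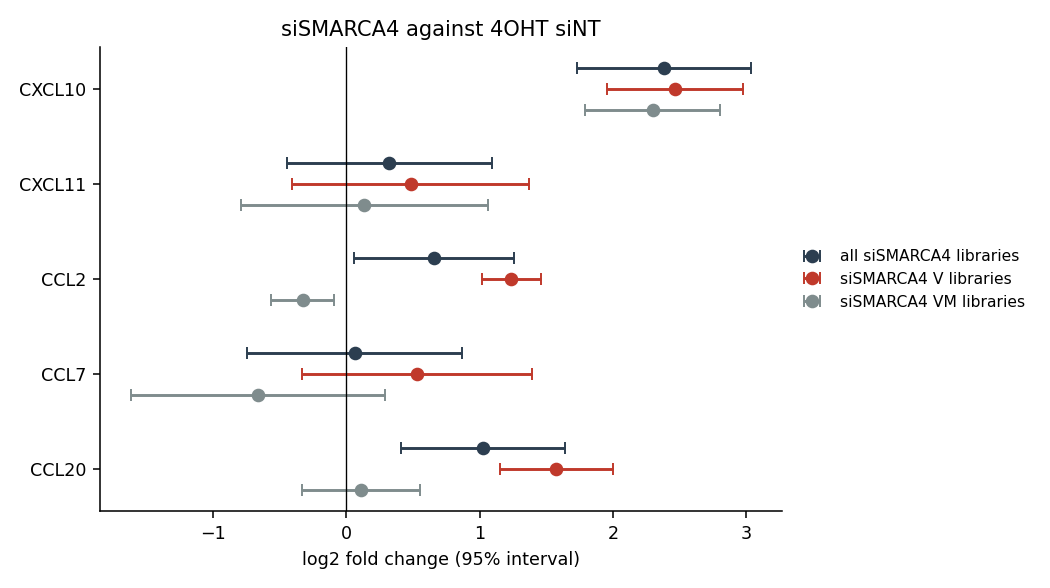
Log2 fold change of siSMARCA4 against 4OHT siNT for the 5 members, over all siSMARCA4 libraries (n = 6) and over its V and VM libraries (n = 3 each), with 95% intervals. CXCL10 is near 2.4 in all 3, while CCL2 goes from 1.24 in the V libraries to -0.33 in the VM libraries and CCL20 from 1.57 to 0.11.

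V against VM was a comparison that the choice of members did not use directly, but it is not independent of that choice. In the siSMARCA4 comparison known at the choice, 3 of 6 siSMARCA4 libraries were V and all 4OHT siNT libraries VM. A gene higher in V libraries would therefore tend to be higher there too. Averaged over DMSO siNT and 4OHT siSMARCA4, CCL2 was higher in V libraries by 1.13 (SE 0.09, adjusted p = 2.5e-05, edgeR) on the log2 scale, and CXCL10 by 1.27 (SE 0.31, adjusted p = 0.044). These were 2 of 5 members against 2.26% of all genes tested, a share that the choice may have raised. The CXCL10 value rested on DMSO library 2-1V, since it became 0.44 (adjusted p = 0.58) without that library, and over all left-out libraries the adjusted p ran from 0.0045 to 0.58. Within 4OHT siSMARCA4 alone it was 0.17 (SE 0.28, adjusted p = 0.81). The interferon-stimulated genes were higher in V libraries as well, with 33 of 41 above 0, a median of 0.39 and 8 that passed, all higher (19.5%, beside 1.4% of all genes, among them XAF1, PARP14 and IFIH1). XAF1, a pro-apoptotic protein, was higher by 0.93 (SE 0.22, adjusted p = 0.034, edgeR). The count was 0 in edgeR without DMSO library 2-1V (18 with an unadjusted p under 0.05), where 0.0712% of all genes were called higher, and the median was then 0.33. It was 1 to 4 without DMSO library 4-3VM or siSMARCA4 library 2-1VM, 2-3VM, 4-2V, 4-2VM or 4-3V, and 16 without siSMARCA4 library 2-3V. That last fit called 1915 of all genes in either direction, beside 441 in the main fit. Leaving out libraries in this comparison was chosen after seeing the data. DESeq2, no filter on low counts and RLE scaling were chosen before, and gave 14, 16 and 8 of the interferon-stimulated genes higher. They called 1212, 1740 and 428 of all genes, so the larger counts came with more calls among all genes. Within 4OHT siSMARCA4 alone 2 of the 41 interferon-stimulated genes were higher and 2 lower (4.88% each, beside 2.28% and 1.42% of all genes). Within DMSO siNT alone, with library 2-1V among its V libraries, 4 were higher and 0 lower (9.76% higher, beside 0.411% higher and 0.354% lower of all genes). CCL7, CCL20 and CXCL11 did not pass the averaged test (adjusted p = 0.31, 0.50 and 0.35). Within 4OHT siSMARCA4 alone, a split chosen after seeing the data, CCL2 was higher by 1.57 (SE 0.13, adjusted p = 1.0e-05) and CCL20 by 1.46 (SE 0.24, adjusted p = 0.0040), where 3.7% of genes passed. Within DMSO siNT alone CCL2 was higher by 0.70 (SE 0.14, adjusted p = 0.029), where 0.765% of genes passed. The V difference of CCL2 was larger in 4OHT siSMARCA4 than in DMSO siNT by 0.87 (SE 0.19, adjusted p = 0.034), a test that 1.27% of genes passed. Library pairs that shared group and both numbers gave V to VM ratios for CCL2 of 2.55 (2-3) and 2.85 (4-2) with siSMARCA4 and 1.35 (2-2) in DMSO siNT. In a fit of these pairs alone CCL2 was higher by 1.10 (SE 0.20), with an adjusted p of 0.21.

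**Figure D4:**
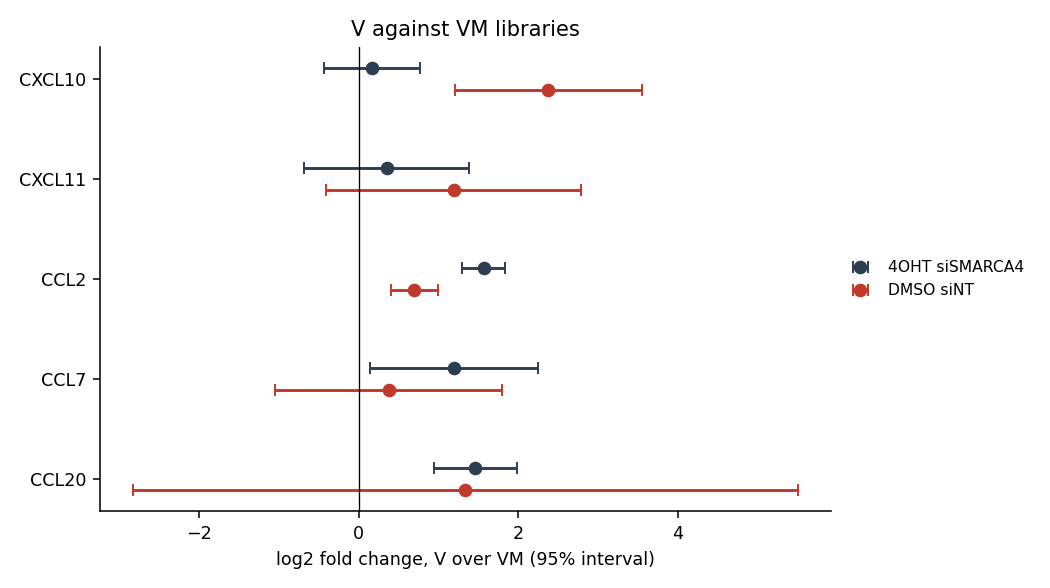
Log2 fold change of V over VM libraries for the 5 members, within 4OHT siSMARCA4 (3 against 3) and within DMSO siNT (2 against 3), with 95% intervals. CCL2 lies above 0 in both groups, and CCL20 in 4OHT siSMARCA4, where its interval runs from 0.95 to 1.98. The intervals of CXCL10 in DMSO siNT (1.21 to 3.55) and CCL7 in 4OHT siSMARCA4 (0.14 to 2.24) also lie above 0. Neither passed after adjustment (adjusted p = 0.058 and 0.22, edgeR).

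The ELR CXC chemokines, which attract neutrophils, were higher with siSMARCA4 in both V and VM libraries for some members. Of 6 tested, 4 rose (66.7%, beside 10.4% of all genes, median 0.91). CXCL8 rose by 1.09 (SE 0.18, adjusted p = 0.00039), CXCL2 by 1.47 (SE 0.26) and CXCL5 by 1.06 (SE 0.23), and in the VM libraries alone these 3 rose by 0.80, 1.09 and 0.67 (adjusted p = 0.0068, 0.0056 and 0.040, edgeR). CXCL3 rose by 0.76 over all libraries but was at 0.20 (adjusted p = 0.45) in the VM libraries. Under 4OHT against DMSO all 6 rose, where 27% of all genes rose (median 8.38). Among the other CXCR3 ligands and non-ELR chemokines, 3 of 9 were tested, CXCL16 rose by 1.16 (SE 0.39) and CX3CL1 fell by 1.70 (SE 0.45), the latter at or under 0.978 CPM. In the VM libraries alone CXCL16 was at 1.03 (adjusted p = 0.076) and CX3CL1 fell by 3.20 (SE 0.53), and within 4OHT siSMARCA4 CX3CL1 was higher in V than in VM libraries by 2.2 (SE 0.58, adjusted p = 0.046, edgeR). CXCL12, the ligand of CXCR4, fell by 6.75 (SE 0.26) with 4OHT. Of 19 other CC chemokines 3 were tested (CCL3, CCL3L3 and CCL26), and with siSMARCA4 0 passed in edgeR or DESeq2 over all libraries and 1 had an unadjusted p under 0.05, while all 3 rose with 4OHT, beside 27% of all genes. With VM libraries only, and with V or VM as a covariate, 1 of the 3 fell in edgeR, beside 15.3% and 15.6% of all genes. CCL1, CCL8, CCL11 and CCL13, the genes beside CCL2 and CCL7, were all below the filter, and CCL8 was at or under 0.015 CPM.

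**Figure D5:**
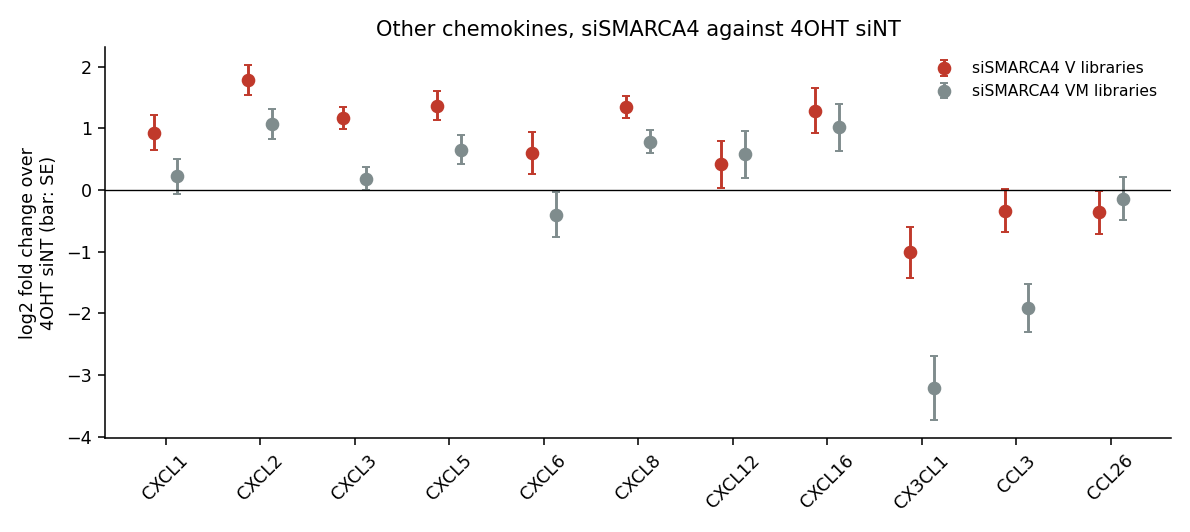
Log2 fold change over 4OHT siNT of 11 other chemokine genes in the V and VM libraries of 4OHT siSMARCA4 (n = 3 each), with SE bars. CXCL2, CXCL5 and CXCL8 lie above 0 in both kinds of library, while CXCL3 is at 1.17 in V and 0.19 in VM libraries.

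Of 6 chemokine receptors tested, CCR1 fell by 1.12 (SE 0.27) with siSMARCA4, where 13.8% of all genes fell, and 4 of the 6 rose with 4OHT, where 27% of all genes rose. ACKR3, a scavenger of CXCL11 and CXCL12, differed by 0.47 (adjusted p = 0.48). Of 14 genes of chemokine cleavage and binding, 2 rose (MMP12 and MMP3) and 3 fell (SDC3, SDC1 and GPC1) with siSMARCA4, shares of 14.3% and 21.4% beside 10.4% and 13.8% of all genes. With VM libraries only, 3 rose and 5 fell (21.4% and 35.7%, beside 11.6% and 15.3% of all genes in that fit). DPP4, the protease that trims CXCL10, was at 183 to 268 CPM with siSMARCA4 and 202 to 251 with siNT, a log2 difference of -0.01 (adjusted p = 0.97), and it rose by 1.44 (SE 0.11) with 4OHT.

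Genes of the NF-kB pathway, which acts on several of the members, rose in 9 of 27 and fell in 4 with siSMARCA4 (33.3% and 14.8%, beside 10.4% and 13.8% of all genes, median 0.12), and rose in 17 and fell in 3 with 4OHT (63.0% and 11.1%, beside 27% and 27.4%). BIRC3, an NF-kB target, rose by 1.84 (SE 0.12, adjusted p = 5.5e-08) and was at 53.5 to 66.3 CPM in the V and 57.8 to 70.8 CPM in the VM libraries. NFKBIA, the inhibitor of NF-kB, rose by 0.37 (SE 0.12, adjusted p = 0.036), and TNFAIP3, a negative regulator of the pathway, differed by 0.32 (adjusted p = 0.35). TNFAIP3 was higher in V than in VM libraries by 0.90 (SE 0.13, adjusted p = 0.0043, edgeR). Without DMSO library 2-1V, 0 of the 27 pathway genes passed that test, where 0.0712% of all genes were higher and 0.0458% lower. With so few calls, the 0 says little about these 27 genes. CCL2 passed in that fit (adjusted p = 0.00026, edgeR). Among the inducing cytokines and their receptors, 3 of 11 rose (TNFRSF1B, IL1R1 and IL1A) and 1 fell (TLR2), shares of 27.3% and 9.09% beside 10.4% and 13.8% of all genes. With VM libraries only, 2 of 12 rose and 4 fell (16.7% and 33.3%, beside 11.6% and 15.3% of all genes in that fit). IL1B was at 1262 to 1778 CPM in the V libraries of 4OHT siSMARCA4 and 507 to 619 CPM in its VM libraries, and 694 to 1270.4 CPM in 4OHT siNT. In the VM libraries alone it fell by 0.69 (SE 0.16, adjusted p = 0.0072). Of 11 mRNA decay factors of AU-rich transcripts, 2 fell (ZFP36, by 0.54, and ZFP36L1, by 0.30), a share of 18.2% near the 13.8% of all genes.

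The siSMARCA4 effect of siRNA number 2 minus that of number 4 passed the test in edgeR for 0 of the 5 members, where 1.06% of all genes passed. Of the 5, 0 had an unadjusted p under 0.05 and 0 passed in DESeq2. Without the filter on low counts edgeR called CCL2 (-0.76, SE 0.18, adjusted p = 0.0027). With siSMARCA4, number 2 held 1 V library and number 4 held 2. The differences ranged from -0.82 (CXCL11) to -0.12 (CXCL10), with 95% intervals of -2.06 to 0.42 and -1.20 to 0.97, and the CXCL10 interval does not show that the numbers act alike. Within 4OHT siNT, CXCL10 followed CCL2 across the 6 libraries (Pearson r = 0.92, exact permutation p = 0.042, Spearman rho = 0.89, exact p = 0.033, two-sided), and r was 0.92 again without the 2 libraries farthest from the median. It did not pass adjustment over the 12 relations computed (adjusted p = 0.50 and 0.40). With the mean of the interferon-stimulated genes r was -0.25 (exact p = 0.64) and rho -0.31 (exact p = 0.56), and adjusted p was 0.77 and 0.72. The other 4 relations there had an exact p of 0.39 to 0.86 for r. In 4OHT siSMARCA4 the V and VM libraries formed separate clusters for CCL2 and CCL20, so no r is given for these 2, although they count among the 12. There CXCL10 gave r = 0.36 with CXCL11 (exact p = 0.53, rho = 0.54, exact p = 0.30) and r = -0.35 with the mean of the interferon-stimulated genes (exact p = 0.54, rho = -0.26, exact p = 0.66), with r = 0.28 for CCL7 (exact p = 0.61, rho = 0.26, exact p = 0.66) and r = 0.25 for the mean of the ELR CXC chemokines (exact p = 0.63, rho = 0.26, exact p = 0.66). The adjusted p of all 4 was 0.77 for r and 0.72 for rho. Without the 2 farthest libraries r became 0.79, 0.84, 0.51 and 0.94 in that order, so the sign for the interferon-stimulated genes rests on 2 libraries. The genes most like each member were sought among the 14440 tested genes with a mean CPM of 1 or more. After group means were subtracted, those most like CXCL10 over the 17 libraries were IRF2BPL (r = 0.93), TRPA1 (0.88) and FOS (0.88), and those most like CCL2 were MEDAG (0.94), ACSS3 (0.94) and QPCT (0.93). CCL20 was nearest QSOX1, PI3 and PGK1, CCL7 nearest UBOX5, ADAM15 and CSTPP1, and CXCL11 nearest PTPN3, a gene without a symbol (ENSG00000277287) and SYNGR3. These correlations are descriptive, since the subtraction of group means leaves the V and VM difference in DMSO siNT and 4OHT siSMARCA4. It also leaves single libraries far from their group, as DMSO library 2-1V was for CXCL10 (1.43 CPM beside 0.117 to 0.279). The genes named as most like CXCL10 may therefore rest largely on that library. MEDAG, ACSS3 and QPCT, like CCL2, were at higher levels in V libraries, with log2 differences of 1.22, 1.40 and 0.71.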

How the data were processed

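RNA-seq of 17 libraries was used, with poly(A) selection and a directional kit. The submitters' processing notes name cutadapt 4.7, HISAT2 2.2.1 and GRCh38, and the methods of the authors name TElocal, which spreads multimapping reads by maximum likelihood. The deposited values were therefore expected counts per gene and repeat, given as whole numbers. Repeats stayed in the library totals. The main test was edgeR 4.0.16 quasi-likelihood (R 4.3.3) with TMM scaling, filterByExpr (minimum count 10, total 15), 1 term per group over all libraries and Benjamini-Hochberg adjustment at 0.05. Intervals are 95%. Log2 CPM used a prior count of 2, and CPM are TMM-scaled. The edgeR fit was also run on simulated counts with known changes, and the outcome is not given here. V against VM used 1 term per group and V or VM. The members and gene lists were chosen with earlier results of these data known, so members have no test for siSMARCA4 or 4OHT. Named genes were the members, preset interferon, receptor and NF-kB genes, and up to 3 rises and 3 falls per list. Alternatives were DESeq2 1.42.0, RLE scaling, no filter, blocks, covariates and left-out libraries. 1 tested interferon-stimulated gene counted in its list is not reported here.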

Additional observations from a re-analysis of the deposited data

Results flagged for a closer look

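CXCL10 in DMSO siNT library 2-1V was at 1.43 CPM, far above the other 4 libraries of its group (0.117 to 0.279 CPM). By Dixon's test on CPM the gap was 0.88 of the group's range, against a critical value of 0.71. This value was the only one marked among 18 groups of library values examined, and chance marks about 5% of groups. The mark holds for the CPM scale, and no such test is given for log2 values. The same library was the highest of its group for CCL2, CCL7, CCL20 and CXCL11.

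The V against VM difference of CCL2 was larger in 4OHT siSMARCA4 than in DMSO siNT by 0.87 on the log2 scale (SE 0.19, adjusted p = 0.034, edgeR interaction term added after seeing the data). The part of what V and VM stand for was not tested.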

How the results depend on the processing

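CXCL10 with siSMARCA4 stayed between 2.08 and 2.48 on the log2 scale under every alternative run, and leaving out each library in turn gave 2.26 to 2.44, while CCL2 gave 0.47 to 0.81, CCL20 0.81 to 1.18, CCL7 -0.14 to 0.25 and CXCL11 0.15 to 0.45. Values moved with V or VM and with the siRNA number. The replicate block on the full label gave -0.33 for CCL2, 0.095 for CCL20 and 3043 genes called, the V or VM covariate -0.13, 0.11 and, for CXCL10, 2.08, and VM libraries only -0.32 for CCL2, -0.65 for CCL7 and 0.13 for CCL20. CXCL11 was -0.079 with siRNA number 2 and 0.74 with number 4, and CCL2 0.26 and 1.03, with 1 and 2 V libraries among the 3 of siSMARCA4. With number 4 1198 genes were called in place of 4703. Same-numbered libraries did not deviate together (correlations -0.45 to 0.30), so the block is given only here. Left-out libraries gave 3717 to 5352 genes called for siSMARCA4 and 9980 to 10917 for 4OHT. The siRNA number difference called 207 genes, 791 without a filter, 623 with DESeq2, and 17 (without siSMARCA4 2-3VM) to 845 (without 4-2VM). V against VM called 441 genes, 1740 without a filter, 1212 with DESeq2, 721 in siSMARCA4 alone, 149 in DMSO siNT alone, 0 by edgeR in a replicate block of the matched pairs (1452 at an unadjusted p under 0.05), and 23 (without DMSO 2-1V) to 1915 (without siSMARCA4 2-3V). The cause was not tested. CCL7 and CXCL11 are limited by counts under 50 per library.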
